A study of Homo sapiens with 21 samples.

Results

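Of 18132 genes with a single-symbol probe set on the array, 60 were replication-dependent histone genes, the genes for the bulk histones that package newly copied DNA. Members were the genes whose current symbol is H1-1 to H1-5 or that of a numbered H2AC, H2BC, H3C or H4C gene, with older HIST1 and HIST2 names mapped by Entrez ID. RefSeq lists 68 such genes. The other 8 (H2AC18, H2AC19, H3C13, H3C14, H3C15, H4C11, H4C14 and H4C15) occurred only on probe sets shared by several genes and are given apart. Each gene was read from its brightest probe set by mean over the 21 arrays, which is the only measured value that the rule itself uses. The rule was chosen with earlier results of these data known. The 60 members were 5 of 5 H1, 15 of 17 H2A, 18 of 18 H2B, 10 of 13 H3 and 12 of 15 H4 genes. Of these, 53 lie on chromosome 6, 6 on chromosome 1 and 1 on chromosome 12.

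The study profiled SH-SY5Y cells, a human neuroblastoma line, on Affymetrix PrimeView arrays in 7 groups of 3 arrays. APP_AG494, APP_NOSCA and APP_DMSO were cells of 1 line mutated in the amyloid precursor protein gene (APP-V717F), given AG494, NOSCA or vehicle. WT_PALBO, WT_AG494, WT_NOSCA and WT_DMSO were wild-type cells given PALBO, AG494, NOSCA or vehicle. All groups were first differentiated with brain-derived neurotrophic factor at 50 ng/mL and retinoic acid at 10 µM, then kept for 72 h in 0.1% DMSO with or without a compound. AG494 is an inhibitor of the epidermal growth factor receptor kinase, and NOSCA and PALBO are named as the labels give them. The labels give no doses, and APP cells given PALBO were not analysed here. The series describes 3 independent experiments. How the mutated line was derived is not given in the sources used here, so genotype and line cannot be told apart.

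Replication-dependent histone genes are transcribed in S phase, when new DNA needs nucleosomes. H2A, H2B, H3 and H4 form the nucleosome core and H1 binds the linker DNA. Their mRNAs end in a stem-loop in place of a poly(A) tail, and the stem-loop binding protein SLBP carries them through processing and translation. NPAT, a target of cyclin E and CDK2, drives their transcription in the histone locus body. Some members, H2BC5, H2BC12 and H2BC21 among them, are also known to give polyadenylated mRNAs, and the members of a family are near-identical in their coding sequence.

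RefSeq promoters (GRCh38.p14) were matched for 55 of the 60 members, and exact motifs were searched on both strands of the 250 bases before the start. The octamer ATTTGCAT, the site of OCT1, was found in 26 of 55 promoters (47.3%), against 1.63% of 35116 promoters in the table. It was found in 11 of 14 H2A and 14 of 18 H2B promoters, in 1 of 8 H3 promoters, and in none of the 5 H1 and 10 H4 promoters. The 1 H3 promoter is that of H3C4, and the stretch matched for it is also that of H2AC7, so that its octamer is counted for both genes. Partners of a divergent pair likewise share upstream bases. CCAAT was found in 48 of 55 (87.3%, against 32.0%) and TATAAA in 36 of 55 (65.5%, against 10.7%). The H1 box AAACACA was found in 5 of 5 H1 promoters and in no other member, against 4.82% of all promoters. GCGGAC, a core of the H4 element read by HINFP, was found in 5 of 10 H4 promoters and 7 of 55 in all (12.7%, against 10.4%). No motif's letters contain those of another. The upstream sequences below are those of an H1 and an H2B gene that were lower under PALBO and of H2BC12, an H2B gene that was higher in APP_DMSO than in WT_DMSO. They are followed by the stretches between the starts of 2 divergent pairs whose partners are compared later. Motifs are in capitals. The single-gene sequences lie on the minus strand and are written in the direction of the gene, and the stretches between starts are written on the plus strand.
H1-3, chr6:26234988-26235107: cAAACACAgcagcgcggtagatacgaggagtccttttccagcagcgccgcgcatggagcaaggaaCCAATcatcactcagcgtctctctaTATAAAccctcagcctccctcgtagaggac
H2BC3, chr6:26043714-26043833: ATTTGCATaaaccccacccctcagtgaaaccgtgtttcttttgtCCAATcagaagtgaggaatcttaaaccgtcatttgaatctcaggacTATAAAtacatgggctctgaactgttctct
H2BC12, chr6:27146859-27146978: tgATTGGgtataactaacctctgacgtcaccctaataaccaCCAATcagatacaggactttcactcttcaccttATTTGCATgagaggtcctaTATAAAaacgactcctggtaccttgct
H2BC21 and H2AC20, chr1:149886683-149886917: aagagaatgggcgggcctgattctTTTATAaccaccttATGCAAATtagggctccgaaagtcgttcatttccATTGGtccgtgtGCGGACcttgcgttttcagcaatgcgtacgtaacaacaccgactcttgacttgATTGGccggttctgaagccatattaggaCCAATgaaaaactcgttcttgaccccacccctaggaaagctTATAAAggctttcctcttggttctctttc
H2AC25 and H2BC26, chr1:228457874-228458102: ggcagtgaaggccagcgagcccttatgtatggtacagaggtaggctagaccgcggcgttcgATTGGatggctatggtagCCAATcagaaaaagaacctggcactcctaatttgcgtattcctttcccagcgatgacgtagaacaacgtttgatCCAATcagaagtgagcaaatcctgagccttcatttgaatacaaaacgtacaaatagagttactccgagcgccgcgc
H1-3 holds the H1 box, a CCAAT box and a TATA box in these 120 bases. H2BC3 and H2BC12 hold the octamer with CCAAT and TATA boxes. The H2BC21 and H2AC20 stretch of 235 bases holds each kind of motif except the H1 box, with a TATA box toward each gene. The 229 bases between H2AC25 and H2BC26 hold 3 CCAAT boxes and none of the other motifs.

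The deposited values are log2 intensities after RMA, and differences on this scale are log2 fold changes. Array medians ran from 7.88 to 8.03. The level of a probe set depends on its probes, so that the levels given here describe probe sets and do not rank genes by their amount of mRNA. The brightest and dimmest chosen probe sets of each family had means over 21 arrays of 13.19 for H1-2 and 6.27 for H1-1, 13.85 for H2AC6 and 6.24 for H2AC1, 13.34 for H2BC5 and 5.60 for H2BC1, 13.47 for H3C4 and 7.59 for H3C10, and 13.82 for H4C5 and 6.66 for H4C6. The median of all gene means was 8.44. Only 27 of the 60 chosen probe sets carry the plain _at suffix, while 17 end in _s_at, 13 in _x_at and 3 in _a_at, which mark probes that can match several transcripts. Signal of near-identical members can therefore be shared, and members are not independent of one another. Of 13 measured noradrenergic neuroblastoma markers, 12 lay above the all-gene median, as did 0 of 5 immune, 3 of 8 mesenchymal and 1 of 4 glial markers. Bulk RNA cannot tell fewer cells in S phase from less histone mRNA per cell.

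As a description over all members, each gene's mean over 21 arrays was subtracted and the median over the 60 genes taken per array. The medians were -0.27, -0.31 and -0.23 in APP_AG494, 0.02, 0.07 and -0.04 in APP_NOSCA, and 0.07, 0.04 and -0.0007 in APP_DMSO. In wild-type cells they were -0.08, -0.26 and -0.37 under PALBO, 0.11, 0.09 and -0.02 under AG494, 0.11, 0.11 and 0.17 under NOSCA, and 0.26, 0.23 and 0.25 under vehicle. The 3 WT_DMSO arrays were the highest of the 21, and the arrays of APP_AG494 and WT_PALBO were the 6 lowest. The same median over all genes stayed between -0.02 and 0.03 on every array.

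**Figure D1:**
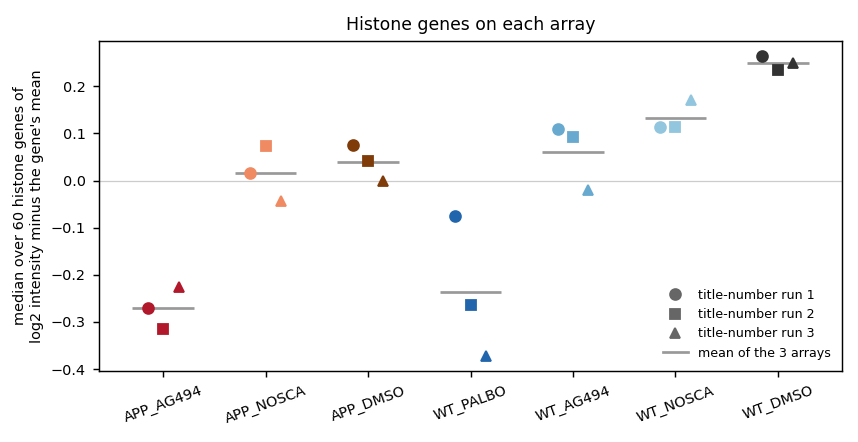
Median over the 60 histone genes of log2 intensity minus the gene's mean over 21 arrays (y axis), 1 point per array, by group (x axis); symbols mark runs of sample title numbers and grey lines the mean of 3 arrays. The APP_AG494 and WT_PALBO arrays sit between -0.37 and -0.08, and the WT_DMSO arrays between 0.23 and 0.26.

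Differences were tested with limma in 1 fit of all 21 arrays, with Benjamini-Hochberg adjustment over 18132 genes and a threshold of 0.05 on the adjusted p. PALBO in wild-type cells gave the most changed members. Of 60 members, 44 were lower in WT_PALBO than in WT_DMSO and 0 were higher, where 3.87% of all genes were lower. The median change over the 60 was -0.48, against 0.0037 over all genes, and 59 values were below 0. All 10 H3 genes fell, as did 13 of 15 H2A, 4 of 5 H1, 11 of 18 H2B and 6 of 12 H4 genes, with family medians of -0.49, -0.54, -0.51, -0.51 and -0.26. The 16 members that did not pass, named here for completeness and not by the naming rule, were H1-1, H2AC1, H2AC6, H2BC1, H2BC5, H2BC9, H2BC12, H2BC14, H2BC18, H2BC21, H4C3, H4C5, H4C6, H4C7, H4C9 and H4C13.

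The linker histone gene H1-3 read 10.68, 10.21 and 9.81 in WT_PALBO, against 11.43, 11.20 and 11.19 in WT_DMSO. The core histone gene H3C12 read 10.42, 10.18 and 9.85 in WT_PALBO, against 11.08, 11.36 and 11.27 in WT_DMSO. H2BC3, for an H2B protein, read 11.00, 10.68 and 10.44 in WT_PALBO, against 11.65, 11.85 and 11.67 in WT_DMSO. In these 3 genes every PALBO array lay below every vehicle array. They were named for their low p in this comparison, so that this is no separate support. The changes were -1.04 ± 0.15 for H1-3, -1.08 ± 0.14 for H3C12 and -1.02 ± 0.13 for H2BC3 (SE, n = 3 arrays a group), with limma adjusted p of 0.000315, 0.000123 and 7.16e-05. The lowest p among members was that of H2AC21, an H2A gene on chromosome 1. It read 11.56, 11.58 and 11.25 in WT_PALBO, against 12.46, 12.38 and 12.46 in WT_DMSO, a change of -0.97 ± 0.09 (adjusted p = 5.61e-06). H3C7, H2AC12, H2BC26, H2AC17, H3C11, H1-4 and H1-2 changed by -0.91, -0.91, -0.80, -0.76, -0.74, -0.51 and -0.48. By signal, the dimmest 20 members had a median change of -0.45 with 11 lower, the middle 20 of -0.67 with 20 lower and the brightest 20 of -0.35 with 13 lower. Sample title numbers fall in runs of 1 to 10, 11 to 20 and 21 to 30, each holding 1 array of every group, and arrays of a run deviated together from their group means. Within the 3 runs the member medians were -0.29, -0.47 and -0.65. With only the 2 groups in the fit, 27 members were lower.

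**Figure D2:**
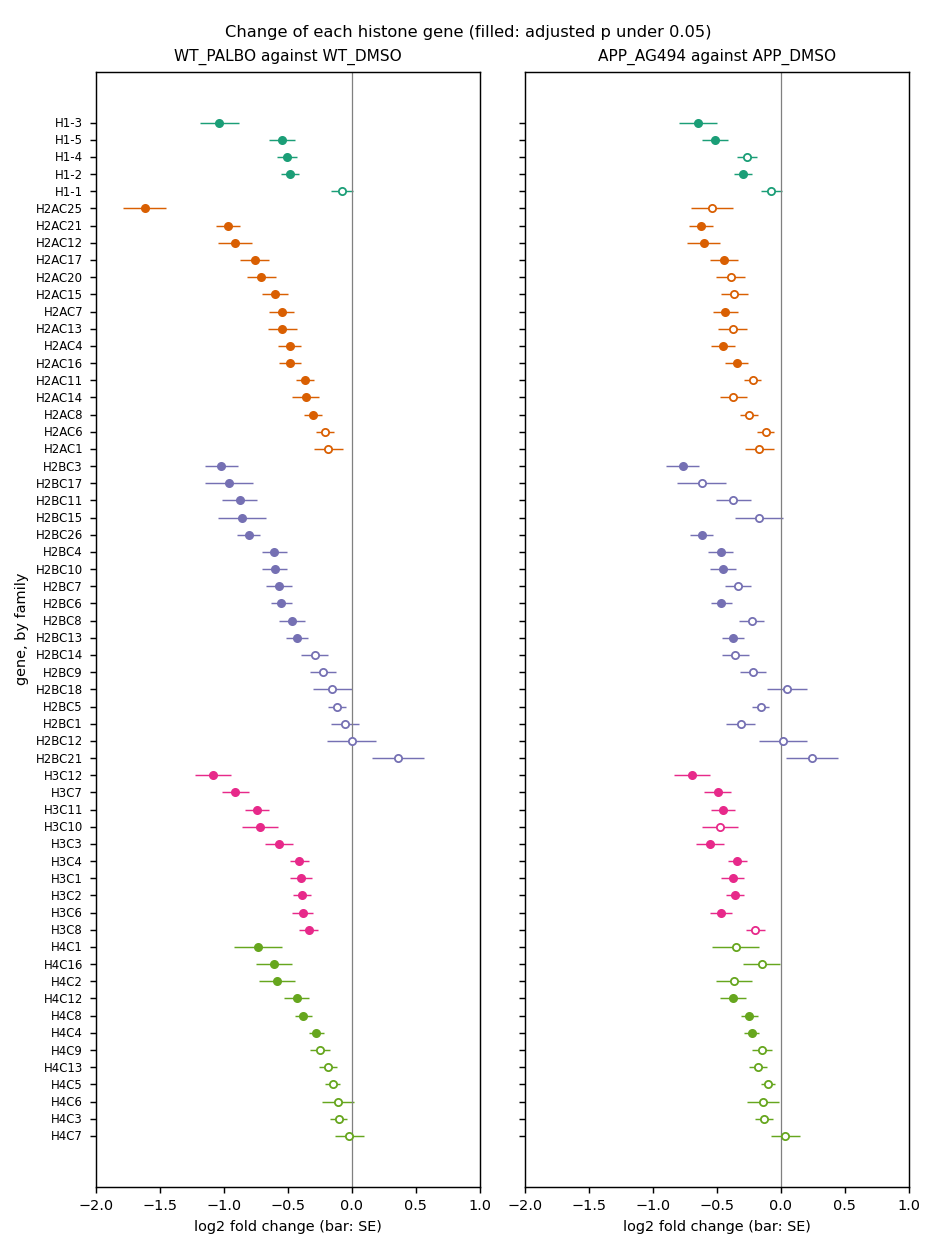
Log2 fold change (x axis, bars are SE) of each of the 60 histone genes (y axis, by family) for WT_PALBO against WT_DMSO on the left and APP_AG494 against APP_DMSO on the right; filled points have an adjusted p under 0.05. There are 44 filled points on the left and 26 on the right, all below 0.

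**Figure D3:**
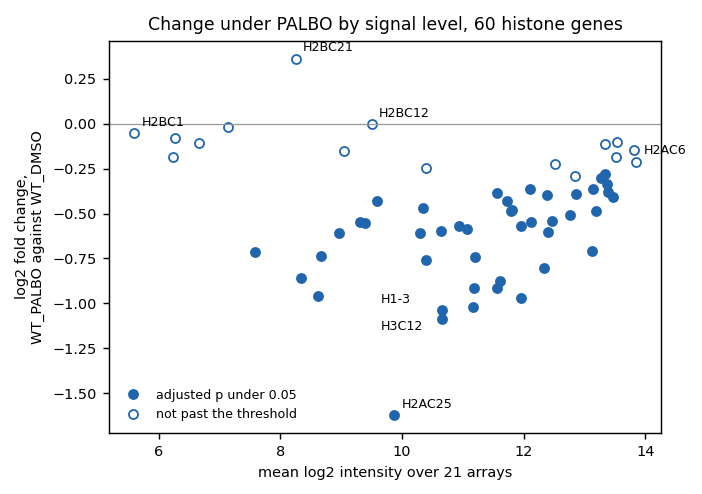
Log2 fold change of WT_PALBO against WT_DMSO (y axis) against the mean log2 intensity over 21 arrays (x axis) for the 60 histone genes; filled points have an adjusted p under 0.05. All 20 members between 10.40 and 12.34 are filled, and H2BC21, at 0.36, is the only member above 0.

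AG494 was followed by lower histone signal in APP cells. Of 60 members, 26 were lower in APP_AG494 than in APP_DMSO and 0 were higher, where 2.76% of all genes were lower. With the run of title numbers as a block in the fit, 41 were lower, where 7.06% of all genes were. The median change was -0.36, against -0.0060 over all genes, and 56 values were below 0. H3 had 8 of 10 genes lower, H1 3 of 5, H2A 6 of 15, H2B 6 of 18 and H4 3 of 12.

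H2BC26, an H2B gene on chromosome 1, read 11.76, 11.91 and 12.02 in APP_AG494, against 12.48, 12.47 and 12.60 in APP_DMSO. H2AC21 read 11.45, 11.42 and 11.37 in APP_AG494, against 12.09, 12.08 and 11.95 in APP_DMSO. H2BC3 read 10.50, 10.41 and 10.61 in APP_AG494, against 11.34, 11.35 and 11.13 in APP_DMSO. The groups did not overlap in any of the 3 genes. These were named for their low p in this comparison, so that this is no separate support. Their changes were -0.62 ± 0.09, -0.63 ± 0.09 and -0.77 ± 0.13 (SE), with limma adjusted p of 0.00048, 0.000616 and 0.00126. H3C12, H3C3, H1-5, H2BC4, H3C6, H2BC6, H2AC4, H3C11 and H3C2 changed by -0.69, -0.55, -0.51, -0.47, -0.47, -0.46, -0.45, -0.45 and -0.36. Within the runs the member medians were -0.37, -0.39 and -0.26. The count of 26 among 60 members was 13 without APP_AG494 replicate 2. Where only plain _at probe sets stood for the genes, it was 17 among the 45 members that have one. The comparison shares no array with that of PALBO. All 26 members called here were among the 44 called under PALBO, which is all of the 26 and 59.1% of the 44. A further 16 members were in neither list. The same overlap over all genes is not given here. Most members were called under PALBO and members can share signal, so that these counts do not show a response shared by the treatments.

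**Figure D4:**
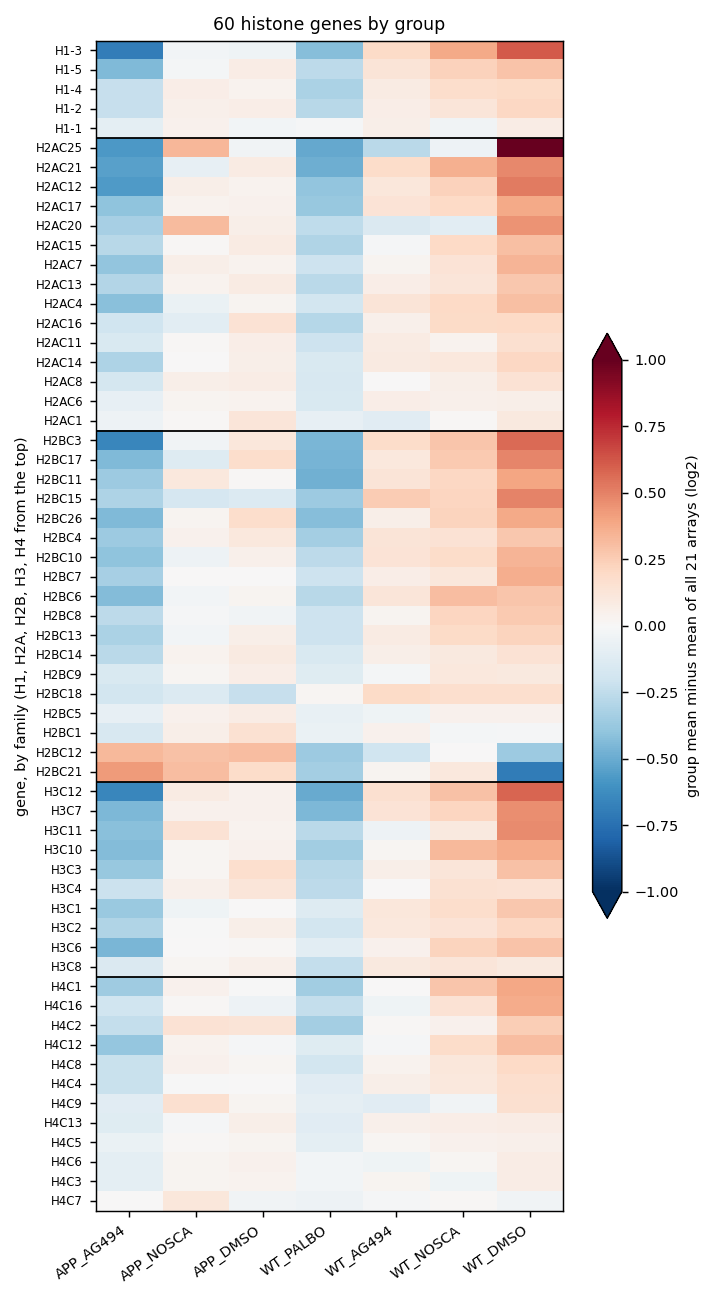
Group mean minus the mean of all 21 arrays (colour, log2 scale) for the 60 histone genes (rows, by family, ordered by their change under PALBO) in the 7 groups (columns). For most members APP_AG494 and WT_PALBO are blue and WT_DMSO is red. H2BC12 and H2BC21 are the other way in APP_AG494 and WT_DMSO, and blue like most in WT_PALBO.

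AG494 and NOSCA in wild-type cells took few members past the threshold, though most values were below 0. In WT_AG494 against WT_DMSO 3 members were lower, where 0.0882% of all genes were: H2AC25 (-1.37 ± 0.17, adjusted p = 0.000821), H3C11 (-0.52 ± 0.09, adjusted p = 0.0203) and H2AC20 (-0.59 ± 0.12, adjusted p = 0.0329). H2AC25 was the 1 member lower in WT_NOSCA against WT_DMSO (-1.15 ± 0.17, adjusted p = 0.0286), where 0.011% of all genes were. The block gave 1 higher and 2 lower under NOSCA, where 0.243% and 0.176% of all genes were. The median changes of -0.17 under AG494 and -0.10 under NOSCA compare with -0.0053 and 0.0087 over all genes. Under AG494 54 of 60 values were below 0, and 23 members had an unadjusted limma p under 0.05, as did 8.13% of all genes. Under NOSCA 53 values were below 0, and 10 members had such a p, as did 6.91% of all genes. The count under AG494 was 1 without any 1 of the 3 WT_AG494 arrays, WT_DMSO replicate 2 or WT_DMSO replicate 3. It was 0 under NOSCA without any 1 of the WT_NOSCA arrays. In APP_NOSCA against APP_DMSO limma called 0 members, where it called 0% of all genes, and 3 members had an unadjusted p under 0.05, as did 5.29% of all genes. The median over the 60 was -0.015 and the values ran from -0.31 to 0.37. The WT_DMSO arrays serve 4 of these comparisons and the APP_DMSO arrays 3, so that the comparisons are not independent.

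Between genotypes under vehicle, 13 members were lower and 2 were higher in APP_DMSO than in WT_DMSO, where 4.05% of all genes were lower and 5.2% higher. The median change was -0.18, against 0.02 over all genes, with 54 values below 0. With the block 25 members were lower and 2 higher, where 7.14% and 10.2% of all genes were. The call count rests on single arrays: it was 7, 9 and 3 without APP_DMSO replicates 1, 2 and 3, and 9, 8 and 9 without WT_DMSO replicates 1, 2 and 3. H1-3 changed by -0.65 ± 0.15, H2BC15 by -0.63 ± 0.19, H3C12 by -0.54 ± 0.14 and H2AC12 by -0.49 ± 0.13 (SE, adjusted p of 0.00843, 0.0374, 0.0212 and 0.0226). H2BC3, H3C11, H3C7, H2AC21 and H2BC7 changed by -0.45, -0.44, -0.42, -0.39 and -0.36. In the same comparison 2 of 8 mesenchymal markers were lower (COL1A1, -1.19; SNAI2, -1.15), with a list median of -0.02, and 1 of 4 glial markers was (S100B, -1.01). Of 13 noradrenergic markers, 2 were higher (CHGA, 0.59; CHGB, 0.63) and 2 lower (ELAVL4, -0.41; DBH, -0.31). None of the 5 immune markers was called. The list means were 7.94 in APP_DMSO and 8.22 in WT_DMSO for mesenchymal, 7.12 in APP_DMSO and 7.47 in WT_DMSO for glial, 12.00 in APP_DMSO and 12.03 in WT_DMSO for noradrenergic, and 6.17 in APP_DMSO and 6.19 in WT_DMSO for immune markers. Their part in the histone values was not tested.

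The members that were higher in APP_DMSO were both H2B genes. H2BC21 read 8.62, 8.24 and 8.46 in APP_DMSO, against 7.72, 7.44 and 7.50 in WT_DMSO (0.88 ± 0.20, adjusted p = 0.00742). H2BC12 read 9.87, 9.69 and 9.87 in APP_DMSO, against 9.25, 8.98 and 9.19 in WT_DMSO (0.67 ± 0.19, adjusted p = 0.0305). The groups did not overlap in either gene, which describes genes already called and is no separate support. H2BC21 was not called in WT_AG494 (0.73), WT_NOSCA (0.81) or WT_PALBO (0.36) against WT_DMSO, but with the block its adjusted p was 0.00265, 0.0045 and 0.0329. H2BC12 had a change of -0.0020 ± 0.19 under PALBO. The probe sets of these genes differed in sign, though the other ones were dim. The other 2 of H2BC21, which have identical values and a mean of 6.41, changed by -0.24 in APP_DMSO, and the second of H2BC12, with a mean of 5.98, by -0.31. H2BC5 showed the opposite case: its chosen probe set changed by 0.04 in APP_DMSO and a second, plain one with a mean of 9.41 changed by 0.97 (adjusted p = 0.000111 over 49293 probe sets, a fit added after the data were seen).

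H2AC25, an H2A gene on chromosome 1, had its highest level in WT_DMSO. Its only probe set ends in _s_at, so that its signal can include that of other transcripts and no plain probe set checks it. It read 9.12, 9.30 and 9.49 in APP_AG494, 10.01, 9.99 and 10.62 in APP_NOSCA, 9.81, 9.81 and 9.89 in APP_DMSO, 9.47, 9.35 and 9.27 in WT_PALBO, 9.55, 9.71 and 9.56 in WT_AG494 and 9.69, 9.84 and 9.96 in WT_NOSCA, against 10.84, 10.69 and 11.42 in WT_DMSO. No array of the other 6 groups reached the lowest WT_DMSO array. H2AC25 was lower in APP_DMSO (-1.14 ± 0.17, adjusted p = 0.000115) and in WT_PALBO (-1.62 ± 0.17, adjusted p = 9.43e-06) than in WT_DMSO. In APP cells it changed by -0.54 ± 0.17 under AG494 (adjusted p = 0.0752, and 0.0168 with the block) and by 0.37 ± 0.17 under NOSCA (adjusted p = 0.921). All of these wild-type comparisons use the same 3 WT_DMSO arrays.

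Its divergent partner H2BC26 read 12.02, 11.98 and 11.75 in WT_PALBO and 12.43, 12.45 and 12.31 in WT_AG494, against 12.69, 12.68 and 12.79 in WT_DMSO, so that neither group overlapped with vehicle. The H2BC26 changes against WT_DMSO were -0.21 in APP_DMSO, -0.80 in WT_PALBO, -0.32 in WT_AG494 and -0.16 in WT_NOSCA, and only that of PALBO passed (adjusted p = 2.11e-05). Of 11 such H2A and H2B pairs, 10 had both partners below 0 under PALBO and 7 had both called. Among all 60 members 59 were below 0 and 44 were called there, so that these counts do not show that partners move together. The median distance between partners was 0.20, and that between unpaired members was not measured. The pair furthest apart was H2BC21 and H2AC20, at 1.07. In APP_DMSO the same pair was 1.27 apart, with H2BC21 higher and H2AC20 lower (-0.39 ± 0.12, adjusted p = 0.039), and it was the only pair with both called. H2AC20 read 13.09, 13.24 and 13.23 in APP_DMSO, against 13.55, 13.54 and 13.64 in WT_DMSO, with no overlap. Under PALBO H2AC20 changed by -0.71 ± 0.12 (adjusted p = 0.000742).

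**Figure D5:**
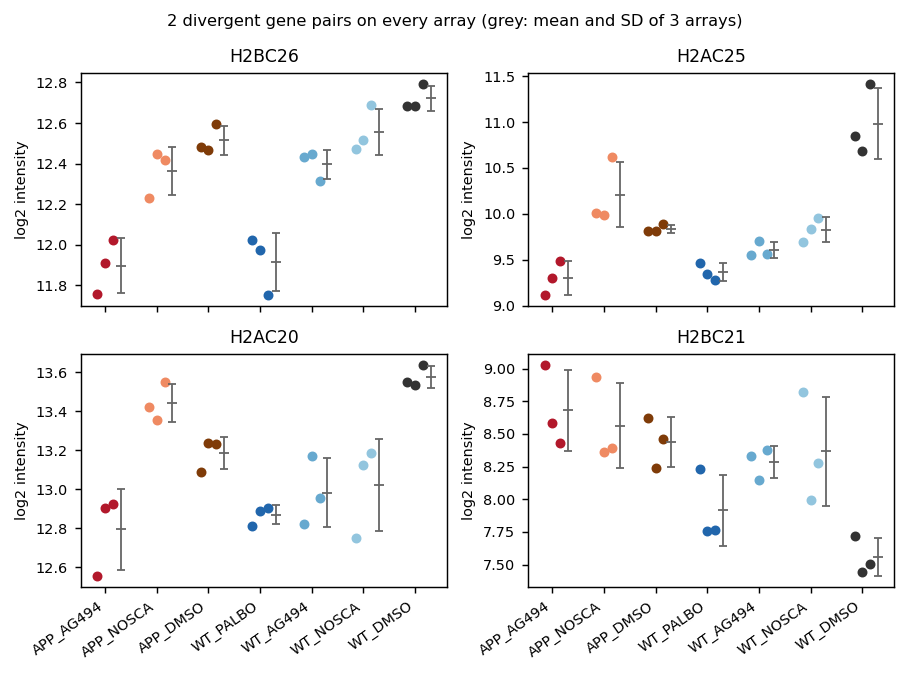
Log2 intensity (y axis) on each of 21 arrays by group (x axis) for H2BC26 and H2AC25 (top) and H2AC20 and H2BC21 (bottom), 2 divergent gene pairs; grey marks are the mean and SD of 3 arrays. H2AC25 lies between 10.69 and 11.42 in WT_DMSO and at or below 10.62 elsewhere, and H2BC21 is lowest in WT_DMSO.

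Under the same compound the genotypes differed under AG494. Of 60 members, 31 were lower and 0 higher in APP_AG494 than in WT_AG494, where 4.92% of all genes were lower, with a median of -0.34, against 0.02 over all genes. H2AC21 read 11.45, 11.42 and 11.37 in APP_AG494, against 12.23, 12.28 and 11.91 in WT_AG494, without overlap (-0.73 ± 0.09, adjusted p = 3.51e-05). H1-3, H2BC3, H3C12, H3C7, H1-5, H2BC6, H2AC4, H3C6, H2BC26, H3C1 and H3C2 changed by -0.88, -0.84, -0.81, -0.59, -0.57, -0.56, -0.55, -0.50, -0.50, -0.49 and -0.40. The count was 20 without WT_AG494 replicate 2. In the same comparison 14 of 27 S phase genes were lower and 0 higher, with a median of -0.32. Of the markers, COL1A1 (-0.92), SNAI2 (-1.04), S100B (-0.77) and ELAVL4 (-0.32) were lower, and CD44 (0.47), CHGA (0.56), CHGB (0.63) and CD68 (0.45) were higher, which is 3 of 8 mesenchymal, 1 of 4 glial, 3 of 13 noradrenergic and 1 of 5 immune genes. Their part in the histone values was not tested. Under NOSCA 3 members were lower (H2AC21, -0.44; H2BC6, -0.34; H2AC16, -0.30) and H2AC20 was higher (0.42) in APP_NOSCA than in WT_NOSCA, where 3.65% of all genes were lower and 3.56% higher. The block gave 9 lower and 1 higher, where 6.79% and 7.99% of all genes were. That count of 4 was 1 without APP_NOSCA replicate 1, and 2 without APP_NOSCA replicate 3 or any 1 of the WT_NOSCA arrays.

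The difference between the genotypes' responses was tested as an interaction. For AG494 limma called 0 members, where 0.0221% of all genes were lower, with 10 of 60 at an unadjusted p under 0.05 (7.53% of all genes) and a median of -0.15. For NOSCA it called 0 members, where 0% of all genes were lower, with 5 of 60 at an unadjusted p under 0.05 (4.94% of all genes) and a median of 0.05. The larger count of AG494 in APP cells is therefore not shown to differ from that in wild-type cells. With the block, H2AC25 was called for AG494 (0.84 ± 0.23, adjusted p = 0.226 without and 0.0465 with the block), and H2AC25 (1.52 ± 0.23, 0.0709 and 0.0114) and H2AC20 (0.81 ± 0.16, 0.585 and 0.025) were called for NOSCA. That is 1 of 60 members higher for AG494, where 0.524% of all genes were higher and 0.739% lower. For NOSCA it is 2 of 60, where 0.0165% of all genes were higher.

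The compounds were also compared with each other within a genotype, in 4 pairs, with p adjusted within each pair over all genes. The labels give no doses, so that these are differences between treatments as given. WT_PALBO had 19 members lower than WT_AG494, where 2.05% of all genes were lower, and 29 lower than WT_NOSCA, where 2.1% were. With the block the first count was 32, where 4.74% of all genes were lower. H2AC21 led both, at -0.68 ± 0.09 against WT_AG494 and -0.85 ± 0.09 against WT_NOSCA (adjusted p of 0.000444 and 6.3e-05). The first count was 6, 8, 10 and 4 without WT_AG494 replicates 1 and 2 and WT_PALBO replicates 2 and 3, and the second was 17, 19 and 14 without WT_NOSCA replicate 3 and WT_PALBO replicates 2 and 3. APP_AG494 had 19 members lower than APP_NOSCA, where 0.739% of all genes were lower, and 36 with the block, where 2.79% were. H3C11 changed by -0.56 ± 0.09 (adjusted p = 0.00342) and H2AC25 by -0.91 ± 0.17 (adjusted p = 0.00738). That count was 7, 6, 12, 4 and 10 without APP_AG494 replicates 1 and 2 and APP_NOSCA replicates 1, 2 and 3. Between WT_AG494 and WT_NOSCA limma called 0 members, where 0% of all genes were lower, with 3 of 60 at an unadjusted p under 0.05 (3.93% of all genes). The member values ran from -0.30 to 0.10 there, and the interval for H2AC25 from -0.57 to 0.13.

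Members outside the single-symbol rule could be read only as sums over near-identical genes, in the added fit of 49293 probe sets. The probe set shared by H3C13, H3C14, H3C15 and H3-7 averaged 9.79 ± 0.20 in WT_PALBO and 11.56 ± 0.20 in WT_DMSO (SD, n = 3), a change of -1.77 ± 0.14 (SE, limma adjusted p = 1.16e-06). It changed by -1.03 in APP_DMSO, -0.99 in WT_AG494 and -0.89 in WT_NOSCA against WT_DMSO, and by -0.80 in APP_AG494 against APP_DMSO, all past the threshold. A plain probe set of H3C14 and H3C15 alone changed by -0.70 in APP_AG494 against APP_DMSO (adjusted p = 0.00906), and an _x_at one by -0.64 (adjusted p = 0.0115). Against WT_DMSO the plain one had 0.0010 in WT_PALBO, 0.38 in APP_DMSO, 0.51 in WT_NOSCA and 0.02 in WT_AG494, and neither of these probe sets passed the threshold there. Under PALBO both probe sets of H2AC18 and H2AC19 were lower (-0.64 and -0.72, adjusted p of 0.00647 and 0.0183), as were 1 of H4C14 and H4C15 (-0.75, adjusted p = 0.000907) and that of H4C11 and H4C12 (-0.41, adjusted p = 0.0267). A second probe set of H4C14 and H4C15 had -0.13 (adjusted p = 0.851). In APP_AG494 against APP_DMSO the values were -0.53 and -0.63 for the same probe sets of H2AC18 and H2AC19, -0.55 and 0.0053 for those of H4C14 and H4C15 and -0.47 for that of H4C11 and H4C12, with adjusted p of 0.032, 0.055, 0.0139, 0.996 and 0.0152. Of all 103 member probe sets, 70 were lower under PALBO and 41 in APP_AG494 against APP_DMSO. The share over all 49293 probe sets is not given here. Some member probe sets repeat others, such as those of H2BC21 with identical values, so that these counts are a description only.

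Among the genes that make and handle histone mRNA, SLBP was lower in WT_PALBO than in WT_DMSO (-0.32 ± 0.07, limma adjusted p = 0.00545) and in APP_AG494 than in WT_AG494 (-0.26 ± 0.07, adjusted p = 0.0151). In APP_AG494 against APP_DMSO it had -0.21 (adjusted p = 0.0781, and 0.0356 with the block). NPAT had -0.15 under PALBO and -0.37 in APP_AG494 against APP_DMSO, and CASP8AP2, its partner in the locus body, -0.15 and -0.18. Neither passed, and for NPAT the block gave 0.037 in APP_AG494. LSM10, LSM11 and ZNF473, parts of the histone U7 processing machinery, had 0.13, 0.30 and 0.20 under PALBO and 0.14, -0.29 and -0.22 in APP_AG494 against APP_DMSO, with none past the threshold (with the block, LSM11 passed under PALBO at 0.0392). LSM11 was lower in APP_AG494 than in WT_AG494 (-0.51 ± 0.10, adjusted p = 0.00288). Of 10 measured genes of locus transcription, 3 fell under PALBO (CCNA2, -0.56; CCNE2, -0.65; CDK2, -0.48) and CCNE1 rose (0.37). In APP_AG494 against APP_DMSO CCNA2 alone of them fell (-0.40). Of 22 processing and decay genes, SLBP fell and LSM1 rose (0.32) under PALBO, and CPSF3 fell (-0.22) in APP_AG494. Over all genes 3.87% were lower and 564 of 18132 higher under PALBO, and 2.76% were lower in APP_AG494 against APP_DMSO. Single calls among the 22 lie near these shares and show no response of the list.

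Of 23 histone chaperone genes, 3 fell under PALBO: NASP (-0.28), which holds soluble H3 and H4, ASF1B (-0.40), which passes them to the replication fork, and MMS22L (-0.65). In APP_AG494 against APP_DMSO NASP (-0.26) and DAXX (-0.27) fell. Of 11 replacement variants, whose making is not confined to S phase, CENPA (-0.68) and H2AX (-0.46) fell under PALBO, and CENPA (-0.78) and H2AZ2 (-0.27) in APP_AG494 against APP_DMSO. The other 9 of 11 in each were not called. Over all genes 3.87% were lower under PALBO and 2.76% in APP_AG494 against APP_DMSO. The few calls are not read as a response of either list. H1-6, a testis linker histone outside the rule, changed by -1.42 ± 0.19 in APP_DMSO and -1.10 ± 0.19 in WT_PALBO against WT_DMSO.

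Among 27 measured genes of S phase and DNA replication, 13 fell and 0 rose under PALBO, where 3.87% of all genes fell. Their median was -0.29. E2F8, CDT1, GINS2 and PCNA, which act in the replication programme, changed by -0.84, -0.74, -0.60 and -0.52. In APP_AG494 against APP_DMSO 11 of the 27 were lower and 0 higher, where 2.76% of all genes were lower, with a median of -0.32. POLA1, GINS2, MCM2 and MCM4 changed by -0.44, -0.38, -0.34 and -0.32 there. In APP_DMSO against WT_DMSO 0 of the 27 were lower and GINS4 was higher (0.66), where 4.05% of all genes were lower and 5.2% higher. The median of the 27 was -0.0029, where the histone median was -0.18. Of the markers, COL1A1 was lower under PALBO (-0.88, 1 of 8 mesenchymal), and S100B (0.95, 1 of 4 glial), CHGA (0.49), CHGB (0.68) and ISL1 (0.43, 3 of 13 noradrenergic) were higher. In APP_AG494 against APP_DMSO CD68 was higher (0.52, 1 of 5 immune), and no marker of the other lists was called. The part of these genes in the histone values was not tested.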

How the data were processed

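The authors deposited log2 intensities of 49372 probe sets, made with RMA, and the submitters' processing notes name affy without a version. Total RNA (25 ng) had been amplified with a whole-transcriptome kit, per the labels' protocols. The log2 values were used as deposited. Precision is set by how many arrays each group has, since intensities carry no counts. Of the probe sets, 79 were controls, 44988 had 1 symbol, 1832 had several and 2473 were not listed in the annotation. Symbols were updated by Entrez ID (44961 matched RefSeq), and the highest-mean probe set stood for each of 18132 genes, with no filter on dim genes.

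limma 3.58.1 (R 4.3.3) was used for all group differences, in 1 fit of 21 arrays, with 14 residual and 4.27 prior degrees of freedom, two-sided, with Benjamini-Hochberg adjustment within a comparison and a threshold of 0.05. There were 14 comparisons. The script was tested on simulated data. Replicates were numbered by the labels' order. Title numbers run from 1 to 10, 11 to 20 and 21 to 30. Arrays of the same run deviated together from their group means (r of 0.23 to 0.68 over 63 pairs, against -0.53 to 0.09 over 126 pairs of different runs), so the run was used as a replicate block in an alternative. Figures and counts were made in Python 3.11.15.

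Members, gene lists and the naming rule were chosen with earlier results of these data known. By the rule the text names up to 12 called members with the lowest p per comparison, H2AC25, the highest and lowest member of each family, up to 6 called genes per other list and a fixed set of regulators. Other genes named, such as those of divergent pairs, were chosen after their values were seen. Where groups do not overlap in a named gene, this describes a gene picked by its p or values and is no separate support. The share of all genes without overlap was not measured. Alternatives covered the probe set that stands for a gene, scaling, a filter, the groups in the fit, the prior, the block and leaving out each array. A fit over all 49293 probe sets was added after seeing the data.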

Additional observations from a re-analysis of the deposited data

Results flagged for a closer look

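The response of 2 histone genes to a compound differed between the genotypes in the interaction test with the run of title numbers as a block, and not in the main fit. Among the other alternatives, a trended and robust prior called 1 member for NOSCA, as did leaving out WT_DMSO replicate 2. With the block 1 of 60 members was called for AG494, where 0.524% of all genes were higher and 0.739% lower. For NOSCA 2 of 60 were called, where 0.0165% of all genes were higher. The response of H2AC25 to AG494 in APP minus that in WT cells was 0.84 on the log2 scale (limma adjusted p = 0.0465 with the block and 0.226 without). Its response to NOSCA differed by 1.52 (0.0114 and 0.0709), and it was higher under NOSCA in 3 of 3 runs of APP cells and lower in 3 of 3 runs of WT cells. The response of H2AC20 to NOSCA differed by 0.81 (0.025 and 0.585), with the same directions in 3 of 3 runs each. Both genes were picked by the blocked test, which uses the same values within runs, so that these directions are no separate support. All of these interactions use the WT_DMSO arrays, in which both genes had their highest group means. The only probe set of H2AC25 ends in _s_at and can match several transcripts.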

How the results depend on the processing

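Precision is limited by 3 arrays a group and by probes that can match several histone genes. Of 2446 recomputed changes of single genes, 2160 kept their direction and side of the threshold, 255 were no longer past it, 23 newly passed and 8 changed direction. The counts of members called changed by more than 1.5 times as follows, and the causes were not tested. With array medians subtracted, APP_DMSO against WT_DMSO had 23. With the run as a replicate block the counts were 27 in APP_DMSO against WT_DMSO, 3 in WT_NOSCA against WT_DMSO, 41 in APP_AG494 against APP_DMSO, 10 in APP_NOSCA against WT_NOSCA, 32 in WT_PALBO against WT_AG494, 36 in APP_AG494 against APP_NOSCA, and 1 and 2 in the AG494 and NOSCA interactions. Every member called without the block was also called with it. With only the compared groups in the fit, which leaves fewer samples to estimate the spread, they were 0 in WT_AG494 and 0 in WT_NOSCA against WT_DMSO, 27 in WT_PALBO against WT_DMSO, 2 in APP_NOSCA against WT_NOSCA, 2 in WT_PALBO against WT_AG494, 10 in WT_PALBO against WT_NOSCA and 7 in APP_AG494 against APP_NOSCA. With only plain _at probe sets, which test 45 members, they were 0 in WT_NOSCA against WT_DMSO, 17 in APP_AG494 against APP_DMSO, 9 in WT_PALBO against WT_AG494 and 9 in APP_AG494 against APP_NOSCA. These counts are out of 45 members and the main ones out of 60. H2AC25, the 1 member called in WT_NOSCA against WT_DMSO, has no plain probe set, so that its call could not be tested there. Averaging all probe sets of a gene gave 2 in WT_NOSCA against WT_DMSO, and a trended and robust prior gave 1 in the NOSCA interaction.

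Leaving out 1 array gave 3 to 9 members in APP_DMSO, 1 to 2 in WT_AG494, 0 to 1 in WT_NOSCA and 38 to 45 in WT_PALBO against WT_DMSO. It gave 13 to 24 in APP_AG494 against APP_DMSO, 20 to 32 in APP_AG494 against WT_AG494, 1 to 3 in APP_NOSCA against WT_NOSCA, 4 to 25 in WT_PALBO against WT_AG494, 14 to 34 in WT_PALBO against WT_NOSCA and 4 to 14 in APP_AG494 against APP_NOSCA. It gave 0 to 1 in the NOSCA interaction, with 1 without WT_DMSO replicate 2. The arrays that move a count by over 1.5 times are named in the results. H2BC21 changed direction with only plain _at probe sets, to -0.24 in APP_DMSO, -0.10 in WT_AG494, -0.21 in WT_NOSCA and -0.091 in WT_PALBO against WT_DMSO. H2BC12, near 0 under PALBO, ran from -0.22 to 0.16 as 1 array was left out, and was above 0 without WT_DMSO replicate 1 or 3 or WT_PALBO replicate 2 or 3. The fit over all probe sets moved no count by over 1.5 times.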
